A study of Mus musculus with 2 samples.

Results

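The cells described here are neutrophils of a treated 4T1 tumour library that carried little RNA of either Ccl3, a macrophage-attracting chemokine, or Retnlg, a gene of circulating neutrophils. They are called Ccl3-low neutrophils below. A cell first had to pass a neutrophil gate, with S100a8, S100a9, Csf3r and G0s2 together at 2% or more of its unique molecular identifiers (UMIs, the counted RNA molecules). It then had to hold Isg15, Rsad2, Ifit1 and Ifit3 together under 1% of its UMIs, Retnlg plus Mmp8 under 3 UMIs and Ccl3 under 5 UMIs. The rule was met by 1178 of the 3518 cells that passed the gate, which is 33.5% (95% exact Clopper-Pearson interval 31.9 to 35.1%), and by 10.9% of the 10835 kept cells of the library. The other 2340 gate cells were divided by the same limits. Of these, 1656 with 3 or more UMIs of Retnlg plus Mmp8 are called Retnlg-high, and 672 with Retnlg plus Mmp8 under 3 UMIs and Ccl3 at 5 or more are called Ccl3-high. Only 12 gate cells were interferon-rich, too few to describe. The members were chosen on these measured values, so every level below is a description and no level was tested.

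The study set subcutaneous tumours of 4T1, a mouse breast cancer cell line, in animals labelled WT and treated with PCN against tumours of WT animals given PBS. The series' design names PATCH, and its relation to PCN is not stated in the sources used here. Each group had 1 library, made with 10x Genomics Chromium 3′ v3 reagents from single cells of the tumour. The labels do not give the age, sex or strain of the animals, or how many tumours went into a library. Only counts of the treated library were analysed here, so no comparison of treated with control tumours was made, and no p-value is given because cells of 1 library are not replicates.

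Neutrophils are short-lived granulocytes that leave the bone marrow carrying preformed granules and transcripts such as Retnlg, Mmp8, Lcn2 and Ly6g. Neutrophils that enter tumours lose many of these transcripts and often gain chemokine and cytokine transcripts such as Ccl3, Cxcl2 and Il1b. Csf3r, the receptor for the growth factor G-CSF, and Cxcr2, the receptor for neutrophil-attracting chemokines, are found on most mature neutrophils, while Hdc, the enzyme that makes histamine, and Il1r2, a decoy receptor for interleukin 1, are also abundant in them.

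The matrix held 12309 barcodes, 33696 genes and 96873409 UMIs, and the authors' list of kept cells named 10835 of these barcodes as treated. Of the barcodes, 33 stood on both the treated and the control list, and 3 of the Ccl3-low neutrophils were among them. Without these barcodes the share of the gate was 33.5%.

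Ccl3-low neutrophils were the shallowest of the 3 classes. Their median was 1341 UMIs and 601.5 genes per cell (range 502 to 15759 UMIs), against 2174 UMIs and 794 genes in Retnlg-high cells and 1661 UMIs and 628.5 genes in Ccl3-high cells. Mitochondrial RNA made up 0.82% of their UMIs, against 0.939% in Retnlg-high and 0.713% in Ccl3-high cells. Levels are given below in CPM, the UMIs of a gene in 1000000 UMIs of all cells of a class together, with 95% exact Poisson intervals that cover counting error only. Because the mean cell held 1457 UMIs, against 2483 in the other gate cells, a level 1.705 times that of the other gate cells stands for the same number of UMIs per cell. Fewer cells of a kind and less RNA per cell cannot be told apart from such levels, and depth also enters the rule itself, since its last limits count UMIs.

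**Figure D1:**
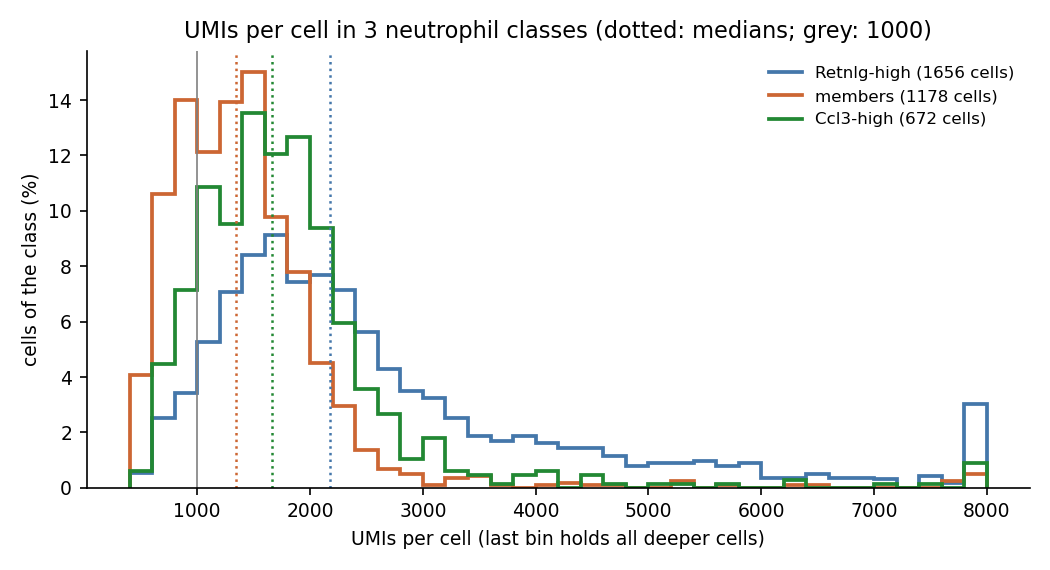
Share of the cells of each class (y axis, percent) by UMIs per cell (x axis, bins of 200 UMIs, all deeper cells in the last bin); dotted lines are class medians and the grey line is 1000 UMIs. The Ccl3-low neutrophils (orange) lie lowest, with a median of 1341 UMIs, and Retnlg-high cells (blue) highest, with a median of 2174.

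The rule was therefore repeated on cells thinned at random to 1000 UMIs each, leaving out shallower cells. Of 840 Ccl3-low neutrophils this deep, 830 still met the rule. Thinning only removes UMIs, so these cells could not cross the limits counted in UMIs. Only the limits set as a percent could be failed, so this count does not show how far the class depends on depth. Of 1548 Retnlg-high cells this deep, 243 (15.7%) met the rule after thinning, and of 590 Ccl3-high cells 93 (15.76%) did. The class at equal depth numbered 1190 cells, of which 69.75% had been Ccl3-low neutrophils before thinning, 20.4% Retnlg-high and 7.82% Ccl3-high.

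The genes given as marks of these cells were Hdc, G0s2, Il1r2, Csf3r and Cxcr2. All of them were higher in CPM in Ccl3-low neutrophils than in either neighbouring class. On this scale these marks did not lie at a middle level. Of the marks outside the rule, Hdc stood at 2540 CPM (2465 to 2616) in Ccl3-low neutrophils, 1454 (1419 to 1490) in Retnlg-high and 1937 (1861 to 2016) in Ccl3-high cells. Il1r2 stood at 1810 (1746 to 1874), 1084 (1054 to 1115) and 781 (733 to 831), in the same order. Cxcr2 stood at 376 (347 to 406), 312 (296 to 329) and 184 (161 to 209). No interval overlapped that of another class for these 3 genes. Counted per cell the order differed: Hdc gave 3.70 UMIs per cell in Ccl3-low, 3.99 in Retnlg-high and 3.61 in Ccl3-high cells. Il1r2 gave 2.64, 2.97 and 1.45, Cxcr2 0.548, 0.856 and 0.342, and Csf3r 1.69, 2.27 and 1.05. Per cell, Hdc, Il1r2, Cxcr2 and Csf3r thus lay at a middle level and were highest in Retnlg-high cells. G0s2 was lowest in Ccl3-low neutrophils, at 24.98 UMIs per cell against 31.36 and 27.72. Csf3r and G0s2 are part of the gate, and their levels were 1160 and 17152 CPM in Ccl3-low, 827 and 11434 in Retnlg-high, and 563 and 14889 in Ccl3-high cells.

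At 1000 UMIs per cell, an Hdc UMI was found in 83.5% of the 840 Ccl3-low neutrophils that deep (80.8 to 85.9%), against 72.1% of the 2147 other gate cells that deep and 1.94% of 3402 cells with macrophage transcripts. Unthinned, the shares were 85.2%, 86.1% and 8.03%, at median depths of 1341, 1951 and 8626 UMIs. The share for Il1r2 was 68.0% in Ccl3-low neutrophils, 54.4% in the other gate cells and 5.56% in macrophage-gate cells at equal depth, and for Cxcr2 it was 31.7%, 25.1% and 0.206%. Before thinning these shares were 71.3%, 70.8% and 19.95% for Il1r2 and 37.7%, 43.5% and 1.83% for Cxcr2. The macrophage gate, 3 or more UMIs of C1qa, C1qb and C1qc together, gives cells of another kind for comparison. It is no clean negative for Il1r2, which part of its cells held.

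**Figure D2:**
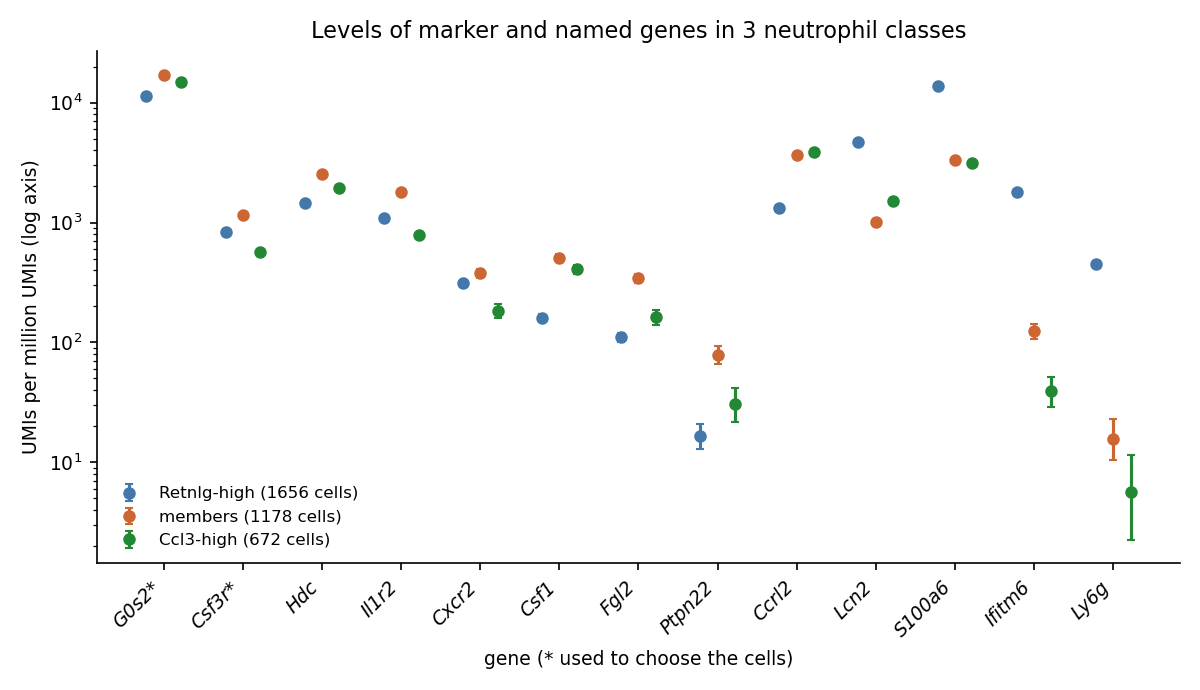
CPM (y axis, log scale) of 13 genes in Retnlg-high (blue), Ccl3-low (orange, labelled members) and Ccl3-high cells (green), with 95% exact Poisson intervals; asterisks mark genes used to choose the cells. Hdc, Il1r2, Cxcr2, Fgl2 and Ptpn22 were highest in Ccl3-low neutrophils, while Lcn2, S100a6, Ifitm6 and Ly6g were highest in Retnlg-high cells.

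Among genes that differed at least 2-fold between Retnlg-high and Ccl3-high cells, the Ccl3-low neutrophils lay mostly between these classes. Over all 6840 compared genes this was not so: in CPM, 45.9% lay above both classes and 16% below both by any margin. Leaving out the 11 genes of the rule, 936 genes differed at least 2-fold between Retnlg-high and Ccl3-high cells, and 731 of them (78.1%) had a level between these in Ccl3-low neutrophils. Of the 577 genes higher in Retnlg-high cells, 454 lay between and 42.5% were nearer the Ccl3-high level on a log scale. Of the 359 genes higher in Ccl3-high cells, 277 lay between and 62.7% were nearer the Ccl3-high level. The rule takes cells low for the leading gene of each neighbour, and its part in these counts was not tested.

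Other genes lay outside both neighbours. Of 6840 genes with 50 or more UMIs in the compared groups together, 511 (7.47%) were at least 1.5 times above both classes in Ccl3-low neutrophils and 160 (2.34%) were at least 1.5 times below both. Against all other gate cells together, 281 of 6844 genes (4.11%) stood at 2 times or more and 211 (3.08%) at 0.5 times or less. These counts rest on the scale: with the total taken over genes outside the rule they were 191 and 271, and per cell they were 12 and 1377. The median gene stood at 1.14 times its level in the other gate cells (log2 0.19), so ratios are read against that shift. Against Retnlg-high cells alone, 404 of 6363 genes (6.35%) were at 2 times or more and 269 (4.23%) at 0.5 times or less. Against Ccl3-high cells alone, 281 of 4594 genes (6.12%) were at 2 times or more and 84 (1.83%) at 0.5 times or less.

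**Figure D3:**
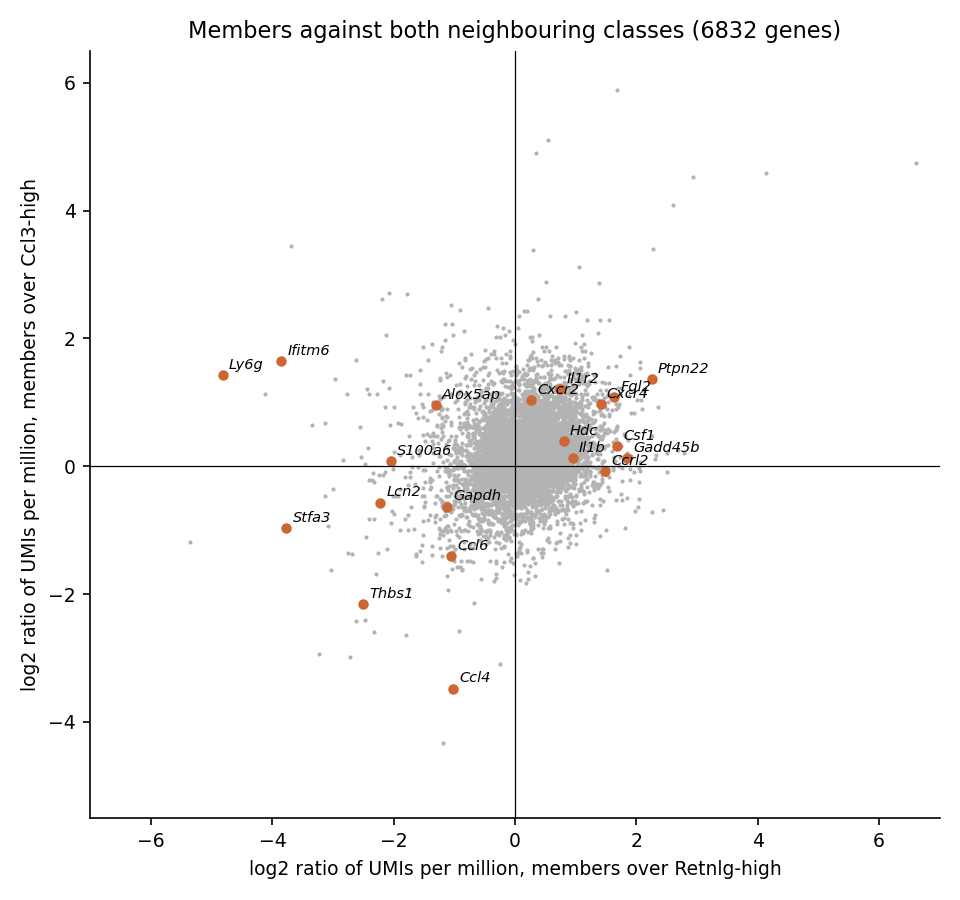
Each grey point is a gene with 50 or more UMIs outside the rule and the mitochondrial genes; the x axis is the log2 ratio of CPM in Ccl3-low neutrophils (members) over Retnlg-high cells and the y axis that over Ccl3-high cells. Ptpn22, Fgl2 and Cxcr4 lie above both classes, Thbs1 and Ccl4 below both, and Ly6g and Ifitm6 below Retnlg-high cells only.

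The clearest low genes belonged to circulating, mature neutrophils. Of a list of 32 such genes, 16 were at 0.5 times or less of the other gate cells, beside 3.08% of all genes. None was at 2 times or more, beside 4.11%, and the median ratio was 0.569. Ly6g, which encodes the surface antigen that defines mouse neutrophils in flow cytometry, stood at 15.7 CPM in Ccl3-low neutrophils, 454 in Retnlg-high and 5.6 in Ccl3-high cells. At 1000 UMIs, only 0.952% of Ccl3-low neutrophils held a Ly6g UMI, against 17.25% of Retnlg-high, 0.509% of Ccl3-high and 0.118% of macrophage-gate cells. Before thinning the shares were 1.36%, 26.0%, 0.893% and 0.464%. Ifitm6, an interferon-induced membrane protein gene, stood at 124 against 1804 and 39.2 CPM. Padi4, whose enzyme citrullinates histones during the release of neutrophil extracellular traps, was at 4.08 against 44.5 and 2.40. Wfdc21 was at 459 against 2330 and 496, and Anxa1, an annexin that restrains neutrophil recruitment, at 317 against 1343 and 136. Wfdc21 was thus close to its Ccl3-high level, while Ly6g, Ifitm6, Padi4 and Anxa1 lay between both classes. Ly6g rested on 27 UMIs (10.4 to 22.9 CPM, against 2.25 to 11.5 in Ccl3-high cells) and Padi4 on 7 (1.64 to 8.41 against 0.495 to 7.01). These intervals overlapped, so a place above Ccl3-high cells is not settled for either gene. For Ifitm6, 75.5% of the class's UMIs were in 5 cells. All the genes named here were low within a class chosen for low Retnlg and Mmp8, which are genes of the same kind. Their direction is therefore not independent of the rule.

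Not every gene of circulating neutrophils was low. Lmnb1, a nuclear lamin gene, stood at 1726 CPM against 1219 in Retnlg-high and 1285 in Ccl3-high cells, and Mxd1, a repressor of the Myc network, at 2018 against 1794 and 1482. Both were lower per cell than in Retnlg-high cells, with 2.51 against 3.34 UMIs for Lmnb1 and 2.94 against 4.92 for Mxd1. Stfa3 went the other way and lay below both classes, at 36.7 CPM against 505 and 71.9. It is one of a cluster of near-identical stefin A genes between which reads can be split. Ccl6, a chemokine gene, also lay below both classes, at 863 against 1797 and 2290 CPM.

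Genes of the secondary granules, the stores of lactoferrin and other antimicrobial proteins, were low against Retnlg-high cells but not against Ccl3-high cells. Of 13 genes, 5 were at 0.5 times or less of the other gate cells, beside 3.08% of all genes. None was at 2 times or more, beside 4.11%, and the median ratio was 0.532. The median ratio was 0.4535 to Retnlg-high and 1.265 to Ccl3-high cells. Against Ccl3-high cells, 4 of 12 genes were at 2 times or more, beside 6.12% of all genes, and 0 at 0.5 times or less, beside 1.83%. Among the 4 were Ngp at 6.15 times and Ltf at 2.57 times. For these, 98.9% and 84.4% of the class's UMIs were in 5 cells, and the count without such cells was not made. Since the cells were taken for low Retnlg and Mmp8, the direction against Retnlg-high cells is not independent of the rule. Lcn2, which encodes the iron-trapping protein lipocalin 2, stood at 1016 CPM against 4721 in Retnlg-high and 1507 in Ccl3-high cells. Cd177, a surface protein of secondary granules, stood at 53.6 against 254 and 59.1, and Ltf, lactoferrin, at 74.6 against 585 and 28.8. Cybb, the catalytic subunit of the phagocyte oxidase, stood at 128 against 361 and 151. Among the 7 oxidase genes with 50 or more UMIs, Cybb was the only one at 0.5 times or less, beside 3.08% of all genes. Ncf1, Ncf4 and Cyba lay between 0.856 and 1.01 times the other gate cells.

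A few cells held most of the granule RNA of the class. In all, 5 Ccl3-low neutrophils with 10 or more UMIs of Ngp, Camp, Prtn3 and Elane together held 98.9% of the 1108 Ngp UMIs and 99.25% of the 1193 Camp UMIs. Prtn3 and Elane encode proteases of the primary granules, which are made by neutrophil precursors in bone marrow. A single cell held all 55 Elane UMIs, and a single cell held 110 of the 137 Prtn3 UMIs. These 5 cells had 1102 to 15759 UMIs (median 7734) and 8 to 199 UMIs of cell cycle genes, against a median of 1 in the other members, and they made up 2.34% of the UMIs of the class. Without them the log2 ratio to the other gate cells was -0.25 for Prtn3 and -0.53 for Elane. The same kind of concentration was seen for Ifitm6, of which 75.5% of the class's UMIs were in its 5 richest cells, and for Ltf, with 84.4%. Hdc (2.43%) and Il1r2 (3.51%) were spread over the class, with a UMI in 1004 and 840 of the 1178 cells.

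Another small set carried transcripts of T cells. Skap1 and Camk4, signalling genes of T cells, and Gzma and Ccl5, an effector protease and a chemokine of cytotoxic lymphocytes, were among the 12 genes at 2 times or more per cell. In all, 6 Ccl3-low neutrophils held 186 of the 194 UMIs of these 4 genes, at a median of 3892 UMIs per cell. They also held 36 of the 43 UMIs of Bcl2, a survival gene, whose log2 ratio was -0.82 without them. These genes were looked at after their values were seen. Whether the 6 barcodes were doublets was not tested.

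Several genes stood higher in Ccl3-low neutrophils than in either neighbour. Fgl2, a fibrinogen-like protein that is secreted and membrane-bound, stood at 343 CPM (315.5 to 371.5) against 111 (101 to 121) in Retnlg-high and 162 (141 to 186) in Ccl3-high cells. At 1000 UMIs it was found in 26.9% of Ccl3-low neutrophils, 11.4% of Retnlg-high, 11.4% of Ccl3-high and 6.56% of macrophage-gate cells, and before thinning in 32.1%, 19.99%, 18.0% and 28.8%. Its mean was 0.499 UMIs per cell against 0.304 and 0.302, so it was higher on both scales.

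Ptpn22, a phosphatase that dampens immune receptor signalling, stood at 78.7 CPM against 16.5 and 30.4, and at 0.115 UMIs per cell against 0.0453 and 0.0566. A Ptpn22 UMI was found in 6.79% of Ccl3-low neutrophils at 1000 UMIs, 2.13% of Retnlg-high, 1.86% of Ccl3-high and 1.62% of macrophage-gate cells. Unthinned these shares were 8.15%, 3.20%, 3.57% and 9.98%. The gene was thus seen in few cells of any class, with the largest share in Ccl3-low neutrophils at equal depth.

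Cdk2ap2, a regulator of cyclin-dependent kinase 2, stood at 1446 CPM against 539 and 580. Entpd3, an ectonucleotidase that breaks down extracellular nucleotides, stood at 156 against 42.7 and 72.7. Smyd3, a lysine methyltransferase, stood at 69.9 against 21.6 and 29.6, and Bcl2l15, a member of the Bcl2 family, at 65.3 against 19.6 and 29.6. The remaining genes with the largest ratios were Scimp, Oasl2, Erc1, Ube3c and E230029C05Rik, at 2.55 to 3.27 times the other gate cells. Each of these 9 genes also gave more UMIs per cell in Ccl3-low neutrophils than in the other gate cells.

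Some genes lay well below both neighbours. Thbs1, which encodes the matrix protein thrombospondin 1, stood at 30.3 CPM against 174 in Retnlg-high and 137 in Ccl3-high cells, with 46.2% of its 52 UMIs in 5 cells. Plcb1, a phospholipase C gene, stood at 14.6 against 95.8 and 38.4, with 60% of its 25 UMIs in 5 cells, and its log2 ratio to the other gate cells was 1.31 where cells were thinned before the rule. Dach1, a transcription cofactor gene chosen after its value was seen, stood at 163 against 507 and 424. Ly6c2, a gene of inflammatory monocytes with a near-identical neighbour, stood at 5.25 against 45.4 and 16.8 on 9 UMIs. Ccl4, a chemokine made together with Ccl3, stood at 611 against 1242 and 6826. Since cells were taken for low Ccl3, the direction of Ccl4 is not independent of the rule, whose part was not tested.

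Inflammatory cytokine genes and targets of the transcription factor NF-kB often lay between the classes in CPM. Of 36 such genes, 27 stood higher in Ccl3-low neutrophils than in Retnlg-high cells and lower than in Ccl3-high cells, an order that 18.3% of 6840 genes had, and none showed the reverse order. Per cell, 10 of the 36 had this order and 23 were below both classes, against 4.18% and 58.25% of all genes. Against the other gate cells 1 was at 2 times or more and 2 at 0.5 times or less, beside 4.11% and 3.08% of all genes. The median ratio was 1.23, near that of all genes. Cxcl2, the leading neutrophil-attracting chemokine gene of this library's neutrophils, stood at 45797 CPM against 31437 in Retnlg-high and 78691 in Ccl3-high cells, and at 66.7 UMIs per cell against 86.2 and 146.5. Cxcl3, its close relative, stood at 4001 against 3644 and 11615, Il1a, an interleukin 1 gene, at 416 against 331 and 1193, and Tnf at 110 against 65.8 and 248. Il1b, the other interleukin 1 gene, did not follow this order: it stood at 13972 in Ccl3-low neutrophils, above Retnlg-high cells at 7243 and Ccl3-high cells at 12751, while per cell it gave 20.35 UMIs against 19.87 and 23.74. Among NF-kB inhibitors, Nfkbia stood at 8277 against 4495 and 9613, and Tnfaip3 at 841 against 373 and 969. Per cell, Nfkbia was lowest in Ccl3-low neutrophils, with 12.06 UMIs against 12.33 and 17.9.

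Csf1, the growth factor of macrophages, was the 1 gene of this list at 2 times or more. It stood at 511 CPM (477.3 to 545.5) in Ccl3-low neutrophils, 159 (147.6 to 171) in Retnlg-high and 409 (374.5 to 446.2) in Ccl3-high cells, or 2.35 times the other gate cells (2.156 to 2.566). Its mean was 0.744 UMIs per cell against 0.436 and 0.762, so per cell it was highest in Ccl3-high cells. At 1000 UMIs, 29.9% of Ccl3-low neutrophils held a Csf1 UMI, against 13.6% of Retnlg-high, 25.8% of Ccl3-high and 3.09% of macrophage-gate cells. Before thinning, these were 32.8%, 22.5%, 35.4% and 16.2%. Ccrl2, a receptor that presents chemerin to other cells, stood at 3655 against 1314 and 3863, close to its Ccl3-high level. Il23a, a subunit of interleukin 23, stood at 71.1 against 20.3 and 139, and Ptgs2, the inducible enzyme of prostaglandin synthesis, at 991 against 376 and 1419.

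Immediate early genes, which respond within minutes to stimulation and also to tissue dissociation, were examined as a list. Of 30 such genes, 17 stood above both classes by any margin and 2 below both, beside 45.9% and 16% of 6840 genes, and only Btg2 was 1.5 times above both. The median ratio to the other gate cells was 1.39, against 1.14 over all genes; none was at 2 times or more. Dusp1, a phosphatase that switches off MAP kinases, stood at 6121 CPM against 2670 and 4571. Btg2, an antiproliferative gene, stood at 1838 against 979 and 970, and Junb, a subunit of the AP-1 factor, at 7100 against 3489 and 5613. Zfp36, which destabilises cytokine mRNAs, stood at 2420 against 1129 and 2004. Per cell, Dusp1 gave 8.92 UMIs against 7.32 and 8.51, but Junb and Zfp36 were highest in Ccl3-high cells, with 10.45 and 3.73 UMIs against 10.34 and 3.525. Fosl1 went the other way, at 21.6 CPM against 88.9 and 35.2. How far dissociation of the tumour contributed was not tested.

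The nuclear RNAs Malat1 and Neat1 were highest in this class in CPM. Malat1 stood at 14968 CPM in Ccl3-low neutrophils, 11330 in Retnlg-high and 12001 in Ccl3-high cells, and Neat1 at 1395, 664 and 1037. In the other gate cells together they stood at 11483 and 745. Since a ratio of 1.705 marks equal UMIs per cell, Malat1 was lower per cell than in the other gate cells and Neat1 higher. The median ratio to the other gate cells was 1.08 over 1516 genes that span under 10 kb and 1.196 over 983 genes that span 100 kb or more. Their part in the levels of the genes named here was not tested. Spans came from GENCODE M21, in which 99% of the tested genes had a match.

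Chemokine receptors and adhesion molecules were slightly above all genes as a group, with a median ratio of 1.29 over 22 genes. Of these, 2 were at 2 times or more, beside 4.11% of all genes. Cxcr4, the receptor that retains neutrophils in bone marrow and rises as they age, stood at 185 CPM (165.5 to 206.9) against 69.8 (62.3 to 77.9) in Retnlg-high and 94.3 (78.1 to 113) in Ccl3-high cells. At 1000 UMIs, 15.2% of Ccl3-low neutrophils held a Cxcr4 UMI, against 7.17% of Retnlg-high, 7.97% of Ccl3-high and 11.99% of macrophage-gate cells. Before thinning the shares were 19.2%, 13.3%, 11.6% and 47.0%. P2ry2, a receptor for extracellular ATP, stood at 27.4 against 11.01 and 21.6 on 47 UMIs. Itga4, an integrin subunit, stood at 64.1 against 38.5 and 26.4. Cxcr1, the other receptor of the Cxcr2 type, stood at 80.4 against 49.1 and 44.8. Ccl3-low neutrophils thus held the highest level in CPM of Cxcr1, Cxcr2 and Cxcr4 at once, while per cell Retnlg-high cells held more of Cxcr2 (0.856 against 0.5475 UMIs), Cxcr1 (0.135 against 0.117) and Itga4 (0.106 against 0.0934).

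Receptors for cytokines and microbial products lay near all genes. Of 40 such genes, 19 stood above both classes and 2 below both by any margin, beside 45.9% and 16% of all genes, the median ratio was 1.199, and none was at 2 times or more of the other gate cells. Il1r2 was the 1 gene of this list at 1.5 times above both classes. Clec7a, which encodes the fungal glucan receptor dectin 1, stood at 376 CPM against 182 and 275. Tlr4, the receptor for bacterial lipopolysaccharide, stood at 575 against 306 and 659. Clec12a, an inhibitory lectin receptor, was the only one at 0.5 times or less, at 14.6 against 43.6 and 6.39 on 25 UMIs.

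Interferon-induced genes were the list with the highest median against all other gate cells, though not against each class alone. Of 29 such genes outside the rule, 19 stood above both classes by any margin, beside 45.9% of all genes, and 11 of them by 1.5 times, beside 7.47%. Against the other gate cells 4 were at 2 times or more, beside 4.11% of all genes, with a median ratio of 1.502. This median lies below the 1.705 at which UMIs per cell are equal, as did the medians of all 19 lists. The cells had been limited to under 1% of UMIs from 4 genes of the same kind, a limit that 12 of 3518 gate cells exceeded. Oasl2, a sensor-like antiviral gene, stood at 61.2 CPM against 19.4 in Retnlg-high and 32.8 in Ccl3-high cells. Ifi47, an interferon-inducible GTPase, stood at 74.0 against 23.3 and 37.6, and Gbp2, a guanylate-binding protein, at 131 against 59.5 and 95.1. Irf1, an interferon-responsive transcription factor, stood at 206 against 109 and 145. Per cell, Oasl2, Ifi47 and Gbp2 were still highest in Ccl3-low neutrophils, and Irf1 was level with Retnlg-high cells at 0.300 UMIs. Not all members were high: Irf7, the master regulator of type I interferon, stood at 30.9 against 36.1 and 19.98, and Ifi44 at 2.33 against 12.8 and 7.99 on 4 UMIs, with a log2 ratio to the other gate cells of 0.31 where cells were thinned before the rule.

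Genes of glycolysis and the response to low oxygen were low relative to all genes. Of 35 such genes, 14 stood below both classes and 5 above both by any margin, beside 16% and 45.9% of all genes, and the median ratio was 0.887. Gapdh, a glycolytic enzyme often used as a reference, stood at 610 CPM against 1324 in Retnlg-high and 944 in Ccl3-high cells. Ldha, which makes lactate, stood at 361 against 519 and 635, and Gpi1, an early glycolytic enzyme, at 128 against 306 and 129. Hilpda, a lipid droplet protein induced by low oxygen, stood at 1209 against 1126 and 2797, and Hk2, a hexokinase, at 111 against 96.9 and 281. The class was thus near Retnlg-high cells for Hilpda and Hk2, and near or below Ccl3-high cells for Gapdh and Gpi1.

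Of 26 genes linked to tumour neutrophils, 17 graded upwards in CPM from Retnlg-high through Ccl3-low to Ccl3-high cells, an order that 18.3% of all genes had. The median ratio to Ccl3-high cells was 0.698. Counted per cell, 3 of the 26 had this order and 21 were below both classes, against 4.18% and 58.25% of all genes. Both Ccl3 classes were chosen by their Ccl3 UMIs, and the part of this choice in the order was not tested. Cd274, which encodes the checkpoint ligand PD-L1, stood at 593 CPM against 378 and 961. Spp1, osteopontin, stood at 790 against 812 and 2257, so it was no higher than in Retnlg-high cells. Acod1, the enzyme that makes itaconate, stood at 4680 against 2803 and 4993. Per cell, both Cd274 (0.864 against 1.04 and 1.79 UMIs) and Acod1 (6.82 against 7.69 and 9.30) were lowest in Ccl3-low neutrophils. Siglecf, which encodes a lectin also found on eosinophils and on some tumour neutrophils, was the 1 gene of this list at 2 times or more of the other gate cells, at 20.4 against 4.62 and 8.79. It rested on 35 UMIs in 33 cells. The 4 eosinophil markers summed to 4.08 CPM in the class, against 0.881 in Retnlg-high and 0 in Ccl3-high cells. Of these, Epx and Prg2 were at 0 in the class, and 7 of its cells held a UMI of the others. No macrophage-gate cell of 3402 held a Siglecf UMI at 1000 UMIs (exact upper limit 0.108%), against 0.464% before thinning.

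Survival genes had a median ratio of 1.31 over 25 genes, with Bcl2, described above, and Gadd45b at 2 times or more, beside 4.11% of all genes. Gadd45b, a stress-induced gene that NF-kB also controls, stood at 739 CPM against 205 and 673. Bcl2a1a, 1 of 3 measured copies of a survival gene between which reads can be split, stood at 182 against 54.4 and 245. Mcl1, the survival protein on which neutrophils depend most, stood at 3940 against 2963 and 3508. Per cell, Mcl1 was lower in Ccl3-low neutrophils than in the other gate cells, with 5.74 against 7.66 UMIs.

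Lists of transcription factors and of lipid mediator genes lay near all genes, with median ratios of 1.12 over 29 genes and 1.18 over 14. Cebpd, a factor of late granulocyte maturation, stood at 368 CPM against 205 and 152, and Nfe2l2, which controls antioxidant genes, at 332 against 183 and 244. Alox5ap, which presents arachidonic acid to the enzyme that starts leukotriene synthesis, stood at 797 against 1980 and 408. Per cell, Alox5ap gave 1.16 UMIs in Ccl3-low neutrophils and 5.43 in Retnlg-high cells. Of the 14 genes, 3 were at 0.5 times or less of the other gate cells, beside 3.08% of all genes. They were Alox5ap at 0.487, Ptges at 0.463 and Lta4h, on 15 UMIs, at 0.429 times.

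**Figure D4:**
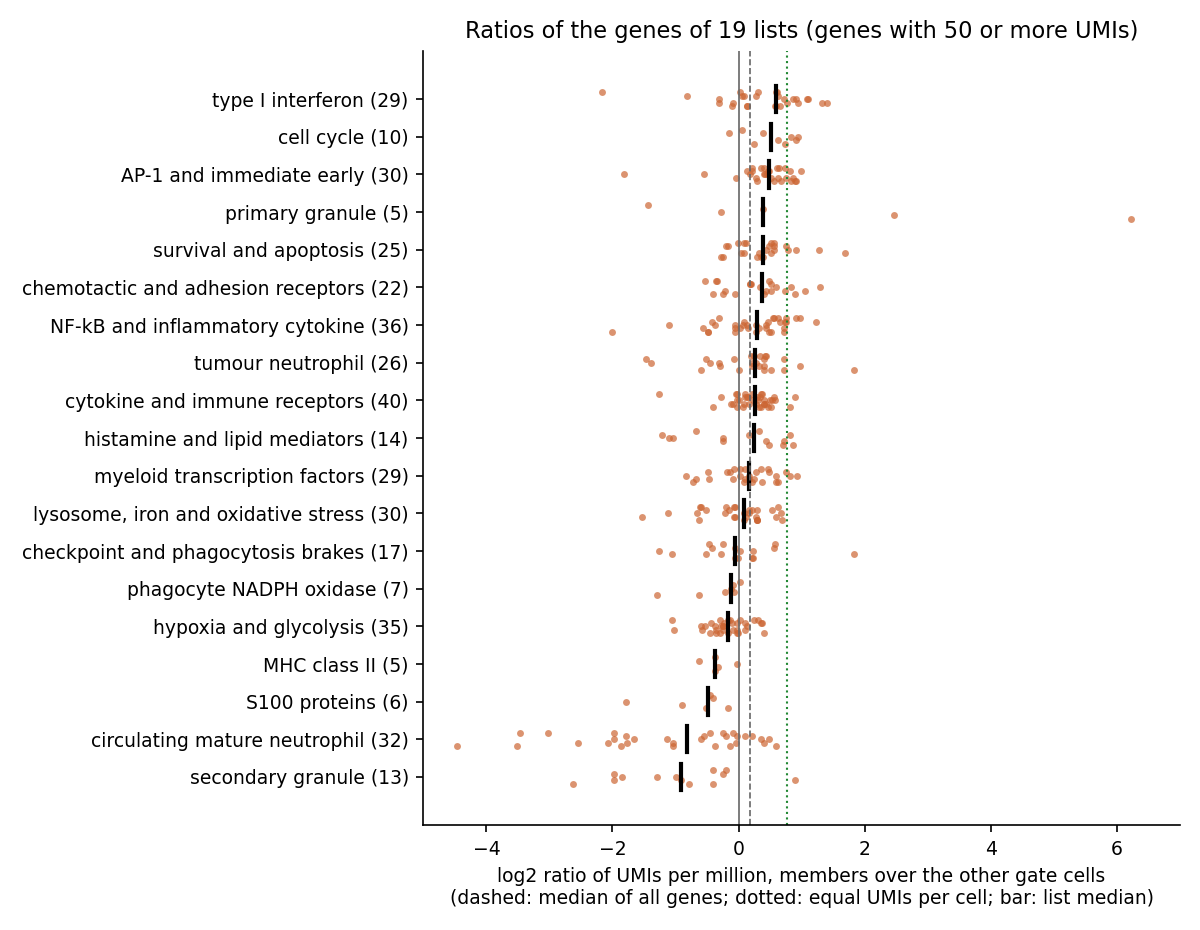
Log2 ratio of CPM in Ccl3-low neutrophils over the other gate cells (x axis) for the genes of 19 lists (y axis, number of genes with 50 or more UMIs in brackets); black bars are list medians, the dashed line the median of all genes and the dotted line the ratio at equal UMIs per cell. Secondary granule and circulating neutrophil genes lie lowest and interferon-induced genes highest.

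The remaining lists held few members past either limit. Of all genes, 4.11% were at 2 times or more of the other gate cells and 3.08% at 0.5 times or less. Iron, lysosome and oxidative stress genes had a median ratio of 1.06 over 30 genes, with none at 2 times or more and 2, Cat and Gclm, at 0.5 times or less. Fth1, the ferritin heavy chain, stood at 34424 CPM, near Retnlg-high cells at 34254 and below Ccl3-high cells at 59356. S100a6, a calcium-binding protein, stood at 3309 against 13721 and 3141, and was the only 1 of 6 such genes outside the rule at 0.5 times or less. Checkpoint and phagocytosis genes had a median ratio of 0.968 over 17 genes, with Siglecf at 2 times or more, Clec12a and Lgals3 at 0.5 times or less, and Lgals3, galectin 3, at 352 against 781 and 572. Genes of MHC class II, which present antigen, were low throughout, at 9.33 to 71.7 CPM for the 5 measured, and 41.5% of the Cd74 UMIs were in 5 cells.

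Most cell cycle genes were low in all classes. Hmgb2, a chromatin protein gene, stood at 694 CPM against 834 and 542. Of the 10 with 50 or more UMIs, 8 stood above both classes by any margin, beside 45.9% of all genes, and none was at 2 times or more of the other gate cells. Per cell, 1 of the 10 stood above both and 3 below both, beside 4.74% and 58.25% of all genes. In 5 cells lay 44.2% of the Stmn1 and 48.7% of the Ube2c UMIs, but 17.2% of those of Pcna. The 5 granule-rich cells held 8 to 199 cell cycle UMIs, and the count of 8 was not repeated without them. Top2a, needed to separate chromosomes, stood at 17.5 CPM on 30 UMIs, 53.3% of them in 5 cells, and Mki67 on 23 UMIs in 16 cells.

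Within the class, Ccl3 was at 0 in 751 cells (63.8%), at 1 or 2 UMIs in 298 and at 3 or 4 in 129, with median depths of 1328, 1345 and 1417 UMIs. The genes followed below were chosen after values were seen, and not all of them had a steady order over these groups. Ccl4 stood at 309, 877 and 1687 CPM, Il1a at 294, 539 and 817, and Hilpda at 999, 1293 and 2207. Cxcl3 stood at 3424, 4509 and 6059, and Fth1 at 31315, 35488 and 49553. In the other direction, Hdc stood at 2665, 2387 and 2196, Il1r2 at 1965, 1563 and 1517, and Btg2 at 2065, 1534 and 1279. Il1b was highest where Ccl3 was 0, at 14720 against 12709 and 12770. Acod1 was nearly level, at 4642, 4652 and 4961, and Cxcr2 stood at 394, 341 and 356 with overlapping intervals. Of 2890 genes with 50 or more UMIs in the outer groups together, 77 were at 2 times or more and 149 at 0.5 times or less where Ccl3 was 3 or 4.

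**Figure D5:**
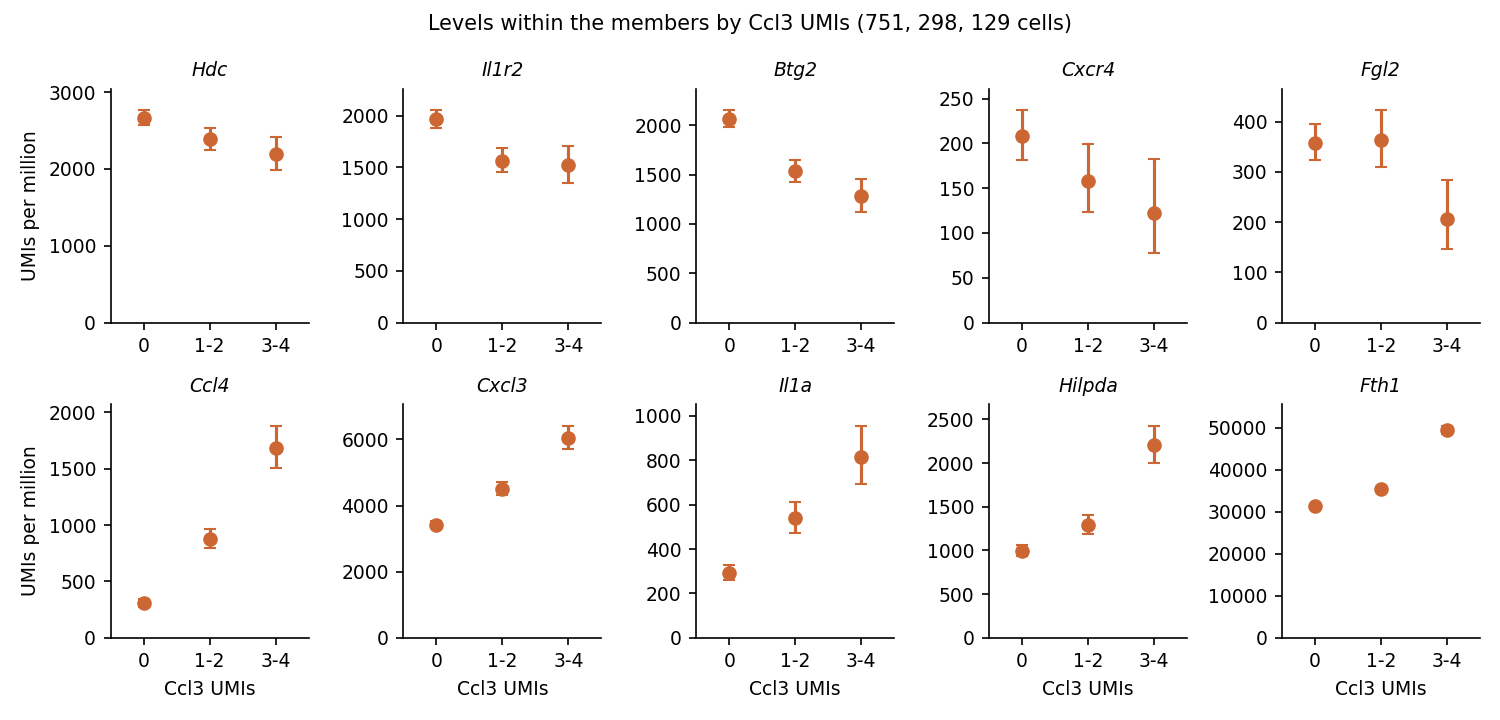
CPM (y axis) of 10 genes in Ccl3-low neutrophils with 0, 1 to 2 and 3 to 4 Ccl3 UMIs (x axis; 751, 298 and 129 cells), with 95% exact Poisson intervals. Hdc, Il1r2, Btg2 and Fgl2 were lower where Ccl3 was 3 or 4 than where it was 0, and Ccl4, Cxcl3, Il1a, Hilpda and Fth1 were higher.

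Besides Ccl4 and Il1a, the largest ratios were those of Ero1a, an oxidoreductase of protein folding induced by low oxygen, at 1093 against 298 CPM, and of Fam162a, at 462 against 175. Plac8, Txnip and Saa3 were at 0.348, 0.359 and 0.407 times their level in cells with no Ccl3. Txnip, whose product restrains glucose uptake, stood at 159 against 450.

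Retnlg plus Mmp8 was at 0 in 720 cells, at 1 UMI in 291 and at 2 UMIs in 167. S100a6 stood at 2716, 4014 and 4313 CPM over these groups, and Lcn2 at 911, 1082 and 1295. Ccrl2 stood at 4164, 3271 and 2398, Il1b at 14861, 13177 and 12005, and Cxcl2 at 48424, 43793 and 39368. Hdc stood at 2650, 2331 and 2490, with no steady order. Cells with neither Ccl3 nor Retnlg or Mmp8 numbered 443, and in them Hdc stood at 2897 and Il1r2 at 2169, above the levels in the groups just named.

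Levels just inside and just outside the Ccl3, Retnlg plus Mmp8 and gate limits differed by varying amounts. The 62 cells with 4 Ccl3 UMIs had Hdc at 2337 and Il1r2 at 1412 CPM, and the 45 cells with 5 had 2057 and 1173. The 167 cells with 2 UMIs of Retnlg plus Mmp8 had Hdc at 2490 and Il1r2 at 1505, against 2278 and 1658 in 142 cells with 3 UMIs. At the gate, 81 cells with 2 to 2.5% of UMIs from its genes had Hdc at 2112 and Il1r2 at 1876, against 1465 and 1361 in 95 cells with 1.5 to 2%. These levels are descriptions of cells next to limits that were chosen with earlier results known.

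Grouping all 3518 gate cells by their genes, with the 11 genes of the rule left out, gave 10 clusters, none of which was the class alone. The largest share of Ccl3-low neutrophils, 36.7%, was in a cluster of 803 cells that was 53.8% Ccl3-low and 38.85% Retnlg-high. A cluster of 361 cells had the highest share, 55.7%, and held 17.1% of the class. Among the 15 nearest cells of a Ccl3-low neutrophil, 43.5% on average were of its own class, 39.8% Retnlg-high and 16.4% Ccl3-high, beside class sizes of 33.5%, 47.1% and 19.1%. No cluster thus matched the limits of the rule.

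Markers of other cells were low but present. The summed level of 8 macrophage markers was 981 CPM, with none at 0, against 1013 in Retnlg-high, 1559 in Ccl3-high and 15421 in macrophage-gate cells; 91 of the 1178 cells held 3 or more such UMIs. The 5 monocyte markers summed to 241 against 509 and 257, the 7 T cell markers to 36.1 against 36.8 and 5.6, and the 5 fibroblast markers to 179 against 227 and 161. Hdc and Il1r2 are also genes of basophils and mast cells or of macrophages. The 7 basophil and mast cell markers summed to 9.33 CPM, with Mcpt8, Ms4a2, Fcer1a and Gata2 at 0, and the 4 eosinophil markers to 4.08. Leaving out gate cells with 1% or more of UMIs from macrophage markers gave 297 genes at 2 times or more and 203 at 0.5 times or less.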

How the data were processed

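UMI counts per gene and cell barcode were analysed as the authors deposited them, in 1 matrix written by Cell Ranger 8.0.1, per the file headers. The submitters' processing notes list STAR beside Cell Ranger. Genome build: not given in the sources used here, nor is the annotation. All 10835 barcodes that the authors' list of kept cells gives as treated were found in the matrix, which was therefore taken as the treated library. Cells were taken from that list and classed by the limits given above. Counts were summed per class and divided by the class total, and ratios used 0.5 counts added to each group. A gene was compared where the groups together held 50 or more UMIs, and the 11 genes of the rule were left out. Intervals (95%, exact Poisson or Clopper-Pearson) cover counting error only.

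Genes named were up to 4 of each of 19 lists with the largest ratios, the 12 highest and 12 lowest genes with 200 or more UMIs, and the given marks; other genes named were chosen after their values were seen. The members and lists were chosen with earlier results of these data known. Clusters came from scikit-learn 1.9.0 and leidenalg 0.10.2, and doublet scores from scanpy 1.11.5. Other values came from Python 3.11.15, numpy 2.4.6, scipy 1.17.1 and pandas 2.3.3, tested on simulated data. No doublets were removed; as an alternative, the 544 kept cells with the highest Scrublet scores were left out, since its own threshold marked 0 cells. Other limits, thinning, UMI minimums and scalings were tried. Scaling per cell, a total without the genes of the rule, and leaving out granule-rich, T cell gene or shared barcodes were chosen after seeing the data.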

Additional observations from a re-analysis of the deposited data

Results flagged for a closer look

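Outside the authors' list of kept treated cells, 23 barcodes of the matrix met the rule of the Ccl3-low neutrophils. They were among 53 left-out barcodes that passed the neutrophil gate. Of the 23, 15 had under 300 genes, 8 had 10% or more mitochondrial UMIs and 1 had 20000 UMIs or more. Their median depth was 618 UMIs. The deepest barcode held 30054 UMIs and no Hdc, and the other 22 held 32 Hdc UMIs in 23299, or 1373 CPM. They were listed here because they lie outside the cells compared in the report.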

How the results depend on the processing

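The share of gate cells that met the rule (33.48%) was 29.82% with Ccl3 under 3 UMIs, 39.03% under 10 UMIs and 31.55% under 0.25% of UMIs. It was 20.47% with Retnlg plus Mmp8 under 1 UMI, 41.96% under 6 UMIs, 31.1% with the gate at 4% and 39.69% after thinning to 1000 UMIs before the rule. Genes at 2 times or more (281) numbered 150 with thinning before the rule and 141 after it, 635, 66 and 3687 with minimums of 20, 200 and no UMIs, and 12 per cell. Genes at 0.5 times or less (211) numbered 331 with Retnlg plus Mmp8 under 1 UMI, 54 and 85 with thinning before and after, 370, 90 and 1427 with those minimums, and 1377 per cell. Genes between the neighbouring classes (731) numbered 427 with thinning after the rule, 1106, 353 and 3284 with those minimums, and 1163 per cell; fewer or more genes were then compared. The log2 ratio of Bcl2 was -2.39 with Retnlg plus Mmp8 under 1 UMI, -0.62 with the gate at 4%, -0.64 without high doublet scores and -0.82 without the 6 cells with T cell genes. That of Gpnmb was 1.58 with the gate at 4%, 0.89 with thinning before the rule, 1.68 without high doublet scores, 1.04 without cells rich in macrophage markers and 0.80 as a mean over cells. Ifi44 was at 0.31 and Plcb1 at 1.31 with thinning before the rule, and Elane at -0.53 and Prtn3 at -0.25 without the 5 granule-rich cells. Apart from the last cases, the cause was not tested. Of 53 named genes past 2-fold, 30 were still past it with thinning before the rule and 45 with thinning after it. No paired analysis was possible because each group had 1 library and only the treated one was analysed.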
